A study of Mus musculus with 4 samples.

Results

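The Notch pathway genes followed here are 37 ligands, receptors, modifying and processing enzymes, nuclear partners and effectors, taken by gene symbol from the 25239 gene IDs of the deposited tables. They were read in RNA sequencing of dissected retina from mouse embryos at E13.5 (E, embryonic day), in 2 libraries labelled control and 2 labelled Isl1cKO, a conditional knockout that the series describes as lacking Isl1. Isl1 encodes a LIM-homeodomain transcription factor of retinal ganglion cells and other early retinal neurons, and the series asked how the transcriptome changes without it. The labels give no Cre driver, strain, sex or number of pooled animals, and no allele of the control group. Nothing in them says that the replicates came from separate litters or pools, so p-values measure only the spread between these libraries, which may be technical. All 37 genes were found, each on 1 row per library, and all 37 passed the filter on low values, which was at least 1 TPM in at least 2 libraries. TPM, the transcript measure of the tables, is scaled to transcript length and to a fixed sum per library, so levels of different genes can be compared.

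Notch signalling passes between neighbouring cells. A ligand of the Delta or Jagged kind on one cell binds a Notch receptor on the next, the receptor is cut first by an ADAM protease and then by gamma-secretase, and the freed intracellular domain joins RBPJ and a Mastermind protein in the nucleus to switch on Hes and Hey repressors. In the embryonic retina these repressors hold progenitors back from differentiation, while newly forming neurons present the ligands, whose genes are in turn activated by proneural bHLH factors.

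RBPJ, the DNA-binding partner of the Notch intracellular domain, recognises GTGGGAA and the shorter core TGGGAA, and proneural factors recognise E-boxes such as CAGCTG. RefSeq promoter windows (GRCm38.p6, 250 bases before to 50 after a gene's start) matched 30 of the 37 genes with 38 windows. Hes1, Hey1, Heyl, Mfng, Mib1, Dtx3 and Dtx4 had no window and were not searched. The longer RBPJ motif was searched on both strands and stood in 5 of 38 windows (13.2%), against 6.38% of all 32851 windows. The core, which lies inside it, stood in 9 (23.7%), against 25.6%. CAGCTG, which reads the same on both strands, stood in 9 of 38 (23.7%), against 16.3%, and the E-box CAGATG, searched on both strands, in 3 (7.89%), against 17.2%. Only Hes5 and Hey2 of the matched genes held the longer motif once on each strand, an arrangement found in 33 of all windows (0.1%). Their windows are shown with that of Lfng, which held the longer motif once, and that of Dll3, whose E-box lay 7 bases before the start. Each is printed from 250 bases before to 25 bases after the start, with the longer RBPJ motif in capitals in the first 3 and CAGCTG in capitals in the fourth. They are chr4:154960673-154960947 (plus strand), chr10:30842759-30843033 (minus strand), chr5:140607091-140607365 (plus strand) and chr7:28301761-28302035 (minus strand).
Hes5: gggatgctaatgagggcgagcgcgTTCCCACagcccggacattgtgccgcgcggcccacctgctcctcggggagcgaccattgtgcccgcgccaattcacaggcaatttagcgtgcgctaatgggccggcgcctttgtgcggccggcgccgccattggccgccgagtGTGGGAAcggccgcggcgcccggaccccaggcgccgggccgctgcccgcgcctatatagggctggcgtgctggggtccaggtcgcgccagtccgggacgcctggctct
Hey2: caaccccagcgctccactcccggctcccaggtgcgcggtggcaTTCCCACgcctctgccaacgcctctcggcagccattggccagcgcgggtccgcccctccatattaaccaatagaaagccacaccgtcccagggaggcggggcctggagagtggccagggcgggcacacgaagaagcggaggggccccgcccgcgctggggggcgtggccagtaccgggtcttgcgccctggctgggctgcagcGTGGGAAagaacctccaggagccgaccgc
Lfng: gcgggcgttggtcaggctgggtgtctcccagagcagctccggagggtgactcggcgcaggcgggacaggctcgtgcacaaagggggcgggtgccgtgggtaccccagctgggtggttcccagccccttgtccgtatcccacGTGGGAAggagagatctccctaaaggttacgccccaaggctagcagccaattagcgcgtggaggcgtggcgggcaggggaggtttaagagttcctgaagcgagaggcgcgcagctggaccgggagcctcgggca
Dll3: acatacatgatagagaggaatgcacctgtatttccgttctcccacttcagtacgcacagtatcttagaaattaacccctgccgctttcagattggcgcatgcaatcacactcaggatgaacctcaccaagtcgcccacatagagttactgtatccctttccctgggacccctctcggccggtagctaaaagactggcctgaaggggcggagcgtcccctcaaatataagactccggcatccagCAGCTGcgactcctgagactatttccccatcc

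The labels were checked on the targeted gene first. Isl1 (chromosome 13, 116298270 to 116309688) read 242 and 201 TPM in the 2 controls, and 321 and 223 TPM in Isl1cKO replicates 1 and 2. The groups overlapped, and the log2 fold change of 0.28 (SE 0.21) had an adjusted p of 0.683 in limma. Isl1 was thus not lower where the labels say it was lost. Values per exon were not analysed here, and every direction below rests on the labels. Aligned sequence ranged from 12.6 to 14.3 gigabases per library. The retinal gene Pax6 was present in all 4 libraries, at 537 to 610 TPM. The 14 ganglion cell markers, Isl1 itself among them, summed to 4064 and 3486 TPM in the controls, against 2258 and 1557 TPM in the others. There 11 of 13 tested markers were lower (84.6%, against 63.8% of all tested genes) and 1, Irx2, passed the threshold. The 2 not lower were Isl1 and Pou4f2, the latter at 126 and 124 TPM in the controls, against 135 and 120 TPM in the others. Isl1cKO replicate 2 stood apart in Xist, at 0.501 TPM against 209 to 287 TPM in the other 3 libraries, and the values without it are given beside some of the genes they move.

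Changes of the Notch pathway genes were about as large as those of all tested genes. None of the 37 passed limma's test at an adjusted p-value of 0.05, against 69 of 13984 genes tested (0.493%). With 2 libraries per group that threshold was seldom reached. Of 13 tested ganglion cell markers 1 passed it, though their median log2 fold change was -1.12. The lack of a call therefore does not show a lack of change. Before adjustment 4 members (10.8%) had a p-value under 0.05, 1 on the higher side in the Isl1cKO libraries and 3 on the lower, against 12.1% of all tested genes (3.2% higher and 8.92% lower). Their median log2 fold change was -0.012, with 17 higher and 20 lower, beside a median of -0.048 over all tested genes, of which 63.8% were lower. The median size of the change, whatever its sign, was 0.10 among the members and 0.11 among all tested genes. Both values of one group lay beyond both of the other in 23 of 37 members (62.2%), 10 higher and 13 lower, against 44.9% of all tested genes (14.9% higher and 30% lower). In 13 of these 23 the log2 fold change shrank by more than 1.5 times when 1 library was left out, and in 12 of the 13 that library was control replicate 1. The same shares were not computed over all tested genes, so this cannot be called particular to the members. The 95% interval of the log2 fold change stayed between -1 and 1 in 36 of the 37 genes (97.3%), against 92.2% of all tested genes, and between -0.5 and 0.5 in 28 (75.7%), against 66.9%. The exception at the wider limit was Dlk1. Summed over all members, the level was 2609 and 2539 TPM in the controls, against 2625 and 2634 TPM in those labelled Isl1cKO.

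**Figure D1:**
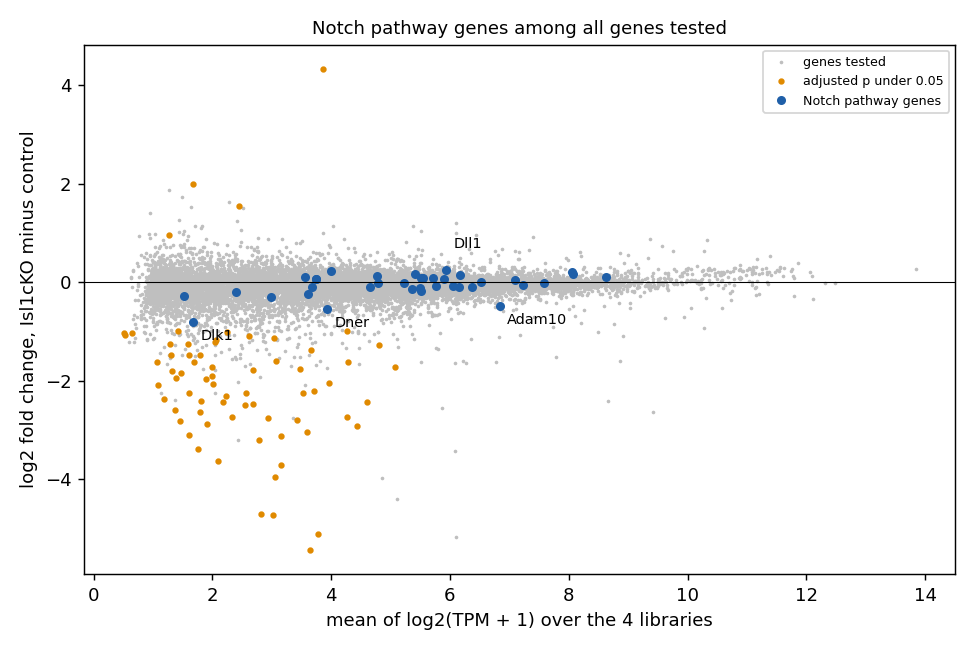
Log2 fold change (libraries labelled Isl1cKO minus control, log2(TPM + 1) scale) against the mean of log2(TPM + 1) for 13984 genes, with the 37 Notch pathway genes in blue and the 69 genes with an adjusted p-value under 0.05 in orange. The blue points lie between -0.81 (Dlk1) and 0.26 (Dll1), and none is among the orange ones.

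Among the ligands, 3 were higher and 4 lower, and the 3 that had an unadjusted p-value under 0.05 were Dll1, Dner and Dlk1. Dll1, the Delta ligand of newly forming neurons, stood at 54.3 and 55.8 TPM in the controls, against 64.4 and 67.6 TPM in those labelled Isl1cKO. Its groups did not overlap, with means of 55.0 ± 1.03 and 66.0 ± 2.26 TPM (SD, n = 2 each). On the log2 scale the difference was 0.26 (SE 0.08, 95% interval 0.04 to 0.47), with an unadjusted p-value of 0.0277 in limma that became 0.342 after adjustment. Dll1 was the most abundant ligand in every library and made up 31.2% and 33.4% of ligand TPM in the controls, against 36.1% and 39.3% in the libraries labelled Isl1cKO. In whole retina, a change in the number of cells that express a gene and a change in its RNA per cell cannot be told apart.

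The other canonical ligands moved less than that or varied as much between replicates. Dll4, a Delta ligand of endothelial tip cells that retinal progenitors leaving the cell cycle also express, stood at 42.0 and 44.3 TPM in the controls, against 48.3 and 43.9 TPM in those labelled Isl1cKO, so that the groups overlapped. Dll3, a divergent Delta protein that acts inside the cell rather than as an activating ligand, stood at 28.9 and 21.5 TPM in the controls, against 23.9 and 23.1 TPM in the others. Its log2 fold change of -0.09 (95% interval -0.50 to 0.33) became 0.12 without control replicate 1, the library in which it was highest. Jag1 stood at 12.4 and 15.4 TPM in the controls, against 16.1 and 16.4 TPM in those labelled Isl1cKO, while Jag2 stood at 13.46 and 11.17 TPM against 10.8 and 9.70 TPM. These Jagged ligands lay apart between the groups in opposite directions, with log2 fold changes of 0.22 (95% interval -0.11 to 0.54) and -0.24 (95% interval -0.56 to 0.09) and adjusted p-values of 0.571 and 0.531 in limma. Without control replicate 1, the library lowest in Jag1 and highest in Jag2, they were 0.08 and -0.12. Jag1 is also a lens gene, and the 13 lens markers summed to 203 and 246 TPM in the controls, against 12.9 and 8.42 TPM in those labelled Isl1cKO, with Lim2 listed at 0 in both of the latter. The part of lens RNA in the Jag1 values was not tested.

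The atypical ligands Dner and Dlk1 lay on the lower side. Dner, a neuronal transmembrane protein with Delta-like EGF repeats, stood at 19.6 and 15.5 TPM in the controls, against 13.1 and 10.4 TPM in those labelled Isl1cKO. Its log2 fold change was -0.54 (SE 0.17, 95% interval -0.98 to -0.10), with an unadjusted p-value of 0.0268 and an adjusted one of 0.342 in limma. The libraries followed the same order in Dner as in the summed ganglion cell markers, highest in control replicate 1 and lowest in Isl1cKO replicate 2. That order was shared by 6 of the 11 marker sums, those of ganglion cells, photoreceptor precursors, pigment epithelium, endothelium, mural cells and periocular mesenchyme. In some of them control replicate 2 and Isl1cKO replicate 1 were nearly equal. They stood at 6.941 and 6.936 TPM for mural cells, 72.9 and 72.2 TPM for endothelium, and 40.9 and 40.2 TPM for pigment epithelium. The part of any of these cell types in the Dner difference was not tested. Nor was the order particular to Dner, for Adam10, Jag2, Notch1, Notch4, Rfng and Heyl had it too. Its share among all tested genes was not counted. The median-ratio factors of the libraries, used below as an alternative scaling, also fell in that order, at 1.026, 1.014, 1.004 and 0.958. Over the 10 refitted alternatives, that scaling among them, the log2 fold change of Dner lay between -0.57 and -0.44.

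Dlk1, a Delta-like protein that lacks the receptor-binding DSL domain, was the scarcest ligand. It stood at 3.14 and 3.35 TPM in the controls, against 1.78 and 1.10 TPM in those labelled Isl1cKO. The means were 3.24 ± 0.147 and 1.44 ± 0.476 TPM (SD, n = 2 each), so that the level in the second group was 0.444 of that in the first. Its log2 fold change of -0.81 (SE 0.16, 95% interval -1.23 to -0.40) was the largest of the 37, with an unadjusted p-value of 0.00476 and an adjusted one of 0.186 in limma. A pseudocount of 0.1 gave -1.15 and the FPKM values gave -0.51, 2 settings that weigh low values differently. Leaving out Isl1cKO replicate 2 gave -0.61, and leaving out replicate 1 of that group gave -1.01. Dlk1 is also made by mesenchyme, and the 11 markers of periocular mesenchyme summed to 28.6 and 21.2 TPM in the controls, against 20.5 and 15.7 TPM in the others, with none listed at 0. Their part in the Dlk1 difference was not tested.

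**Figure D2:**
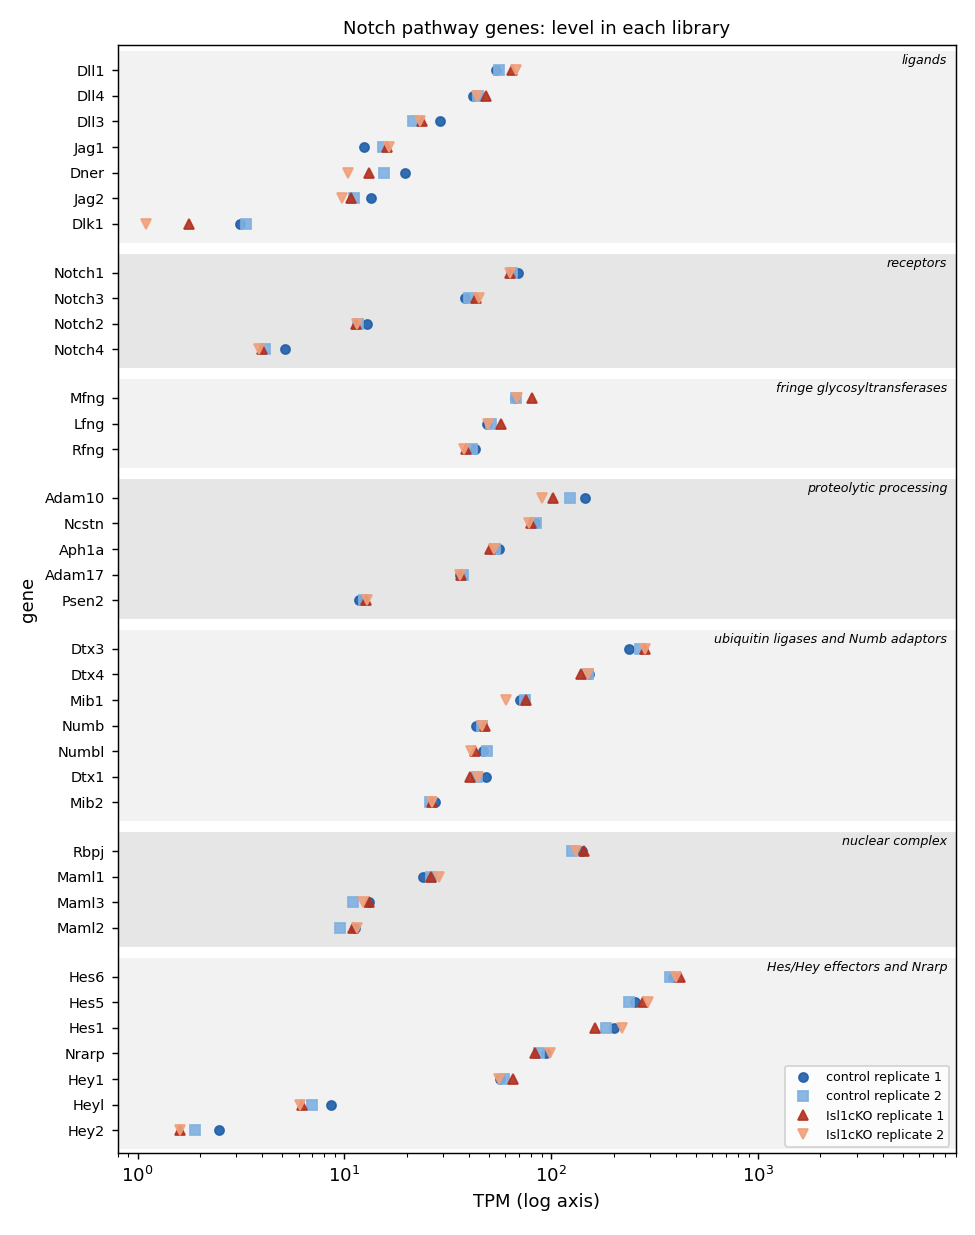
TPM of each of the 37 genes in each library on a log axis, grouped by role and ordered by mean level within a role. Control replicates are blue and libraries labelled Isl1cKO are red or orange, and in most rows the 4 points fall almost on each other, with Dlk1, Dner and Adam10 as the rows in which the red and orange points lie clearly to the left.

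The 4 receptors kept their order of abundance in every library, with Notch1 first, then Notch3, Notch2 and Notch4. Notch1, the main receptor of retinal progenitors, stood at 69.0 and 64.9 TPM in the controls, against 63.3 and 63.0 TPM in those labelled Isl1cKO. Notch3 stood at 38.1 and 39.9 TPM in the controls, against 43.1 and 44.7 TPM in the others. Each of these pairs of groups lay apart, Notch1 on the lower and Notch3 on the higher side, by small amounts: log2 fold changes of -0.08 (95% interval -0.30 to 0.13) and 0.17 (95% interval -0.05 to 0.38), with adjusted p-values of 0.753 and 0.508 in limma. Without control replicate 1 the value of Notch1 was -0.039. Notch1 accordingly made up 55.1% and 53.8% of receptor TPM in the controls, against 51.9% and 51.2% in the libraries labelled Isl1cKO, and Notch3 30.4% and 33.1% against 35.4% and 36.3%. The total over the receptors was 125 and 121 TPM in the controls, against 122 and 123 TPM in the others.

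Notch2 and Notch4 were the lower-abundance receptors. Notch2 stood at 12.9 and 11.6 TPM in the controls, against 11.4 and 11.5 TPM in those labelled Isl1cKO. Notch4, an endothelial receptor, stood at 5.19 and 4.14 TPM in the controls, against 3.98 and 3.87 TPM in the others. The groups did not overlap in either gene, but the gap came mainly from control replicate 1: the log2 fold change of Notch4 was -0.20 with all libraries and -0.06 without it. The sum of the endothelial markers was highest in the same library. The 9 of them summed to 93.9 and 72.9 TPM in the controls, against 72.2 and 68.9 TPM in those labelled Isl1cKO, with Cdh5 at 2.55 and 0.357 TPM in the controls, against 0.211 TPM and 0 in the others, and Tie1 and Emcn also listed at 0 in Isl1cKO replicate 2. Most of the sum was Kdr, at 69.0 and 57.0 TPM in the controls, against 56.7 and 55.5 TPM in the others. Egfl7 went the other way, at 7.04 and 7.98 TPM against 9.003 and 9.38 TPM, and was the only one of the 3 tested endothelial markers with an unadjusted p-value under 0.05 (0.0445 in limma). The part of endothelial RNA in these differences was not tested.

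The Fringe enzymes, which extend O-fucose on the EGF repeats of Notch and so bias it between Delta and Jagged ligands, had log2 fold changes from -0.13 to 0.15. Mfng, manic fringe, stood at 66.7 and 67.2 TPM in the controls, against 81.0 and 68.4 TPM in those labelled Isl1cKO, so that its difference came mainly from Isl1cKO replicate 1 and was 0.03 without it. Lfng, lunatic fringe, showed the same high library, with 57.1 TPM there against 49.0 to 51.2 TPM in the other 3. Without that library its log2 fold change of 0.09 became -0.014. Rfng, radical fringe, stood at 42.9 and 41.2 TPM in the controls, against 38.8 and 38.1 TPM in the others, groups that did not overlap, with a limma adjusted p-value of 0.617.

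Of the proteolytic enzymes, Adam10 alone had an unadjusted p-value under 0.05. Adam10, the protease that makes the ligand-induced cut in Notch and also sheds many other membrane proteins, stood at 146 and 123 TPM in the controls, against 102 and 89.8 TPM in those labelled Isl1cKO. The means were 135 ± 16.2 and 95.8 ± 8.58 TPM (SD, n = 2 each). The groups did not overlap, and the log2 fold change was -0.49 (SE 0.13, 95% interval -0.82 to -0.15), with an unadjusted p-value of 0.0150 and an adjusted one of 0.285 in limma. It stayed between -0.61 and -0.36 when each library was left out in turn. The order of the libraries was again that of the ganglion cell sum and the 5 other marker sums named beside Dner. It was shared by the further members and the scaling factors named there. Over the 10 refitted alternatives the log2 fold change of Adam10 lay between -0.49 and -0.43. The part of those cell types in the Adam10 difference was not tested.

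The related protease and the gamma-secretase subunits were close to level. Adam17, a second sheddase, stood at 36.3 and 37.3 TPM in the controls, against 36.6 and 36.4 TPM in those labelled Isl1cKO, with a 95% interval of the log2 fold change from -0.22 to 0.19. Ncstn, the substrate-recruiting subunit of gamma-secretase, stood at 83.3 and 84.7 TPM against 80.1 and 77.9 TPM. Aph1a, its scaffold, stood at 56.2 and 53.3 TPM against 50.3 and 53.1 TPM, and Psen2, a catalytic presenilin, at 11.8 and 12.4 TPM against 12.7 and 12.9 TPM. The 3 subunits lay apart between the groups, yet their log2 fold changes ranged only from -0.09 to 0.08. The Adam17, Ncstn and Aph1a rows overlap abundant genes on the opposite strand, and whether reads were assigned by strand is not given in the sources used here.

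The ubiquitin ligases and Numb adaptors had log2 fold changes from -0.19 to 0.16, and all 7 of their 95% intervals stayed between -0.5 and 0.5. The most abundant was Dtx3, a Deltex family ligase, at 238 and 270 TPM in the controls, against 284 and 283 TPM in those labelled Isl1cKO. Dtx4, another Deltex, stood at 153 and 151 TPM against 140 and 151 TPM, and Mib1, the ligase that drives endocytosis of ligands in the signal-sending cell, at 70.3 and 74.9 TPM against 75.4 and 60.5 TPM. Of these only Dtx3 had groups that did not overlap, on the higher side, with a limma adjusted p-value of 0.596, and its log2 fold change of 0.16 was 0.07 without control replicate 1. Mib1 changed sign without Isl1cKO replicate 2, to 0.05.

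Numb and Numbl, related adaptors that antagonise Notch in the receiving cell, lay on opposite sides. Numb stood at 43.1 and 46.1 TPM in the controls, against 48.1 and 46.5 TPM in those labelled Isl1cKO. Numbl stood at 46.6 and 48.7 TPM in the controls, against 42.6 and 40.9 TPM in the others, with a log2 fold change of -0.19 (95% interval -0.40 to 0.03) and an adjusted p-value of 0.474 in limma. Neither pair of groups overlapped. Dtx1 and Mib2 had overlapping groups, with levels of 40.6 to 48.2 TPM and of 25.9 to 27.5 TPM over the 4 libraries.

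The nuclear complex was carried by Rbpj, which made up 71.6% to 74.5% of its TPM. Rbpj stood at 141 and 125 TPM in the controls, against 144 and 132 TPM in those labelled Isl1cKO, so that replicates differed more than groups. Maml1, a Mastermind coactivator, stood at 23.9 and 26.2 TPM in the controls, against 26.3 and 28.5 TPM in the others, and its groups lay just apart. Its change shrank by more than 1.5 times without control replicate 1 and also without Isl1cKO replicate 2. Maml3 and Maml2 ranged from 11.0 to 13.1 TPM and from 9.53 to 11.5 TPM, with overlapping groups. All 4 were on the higher side, with log2 fold changes from 0.05 to 0.13 and adjusted p-values from 0.672 to 0.888 in limma. Without control replicate 2 the changes of Rbpj, Maml2 and Maml3 were below 0.

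**Figure D3:**
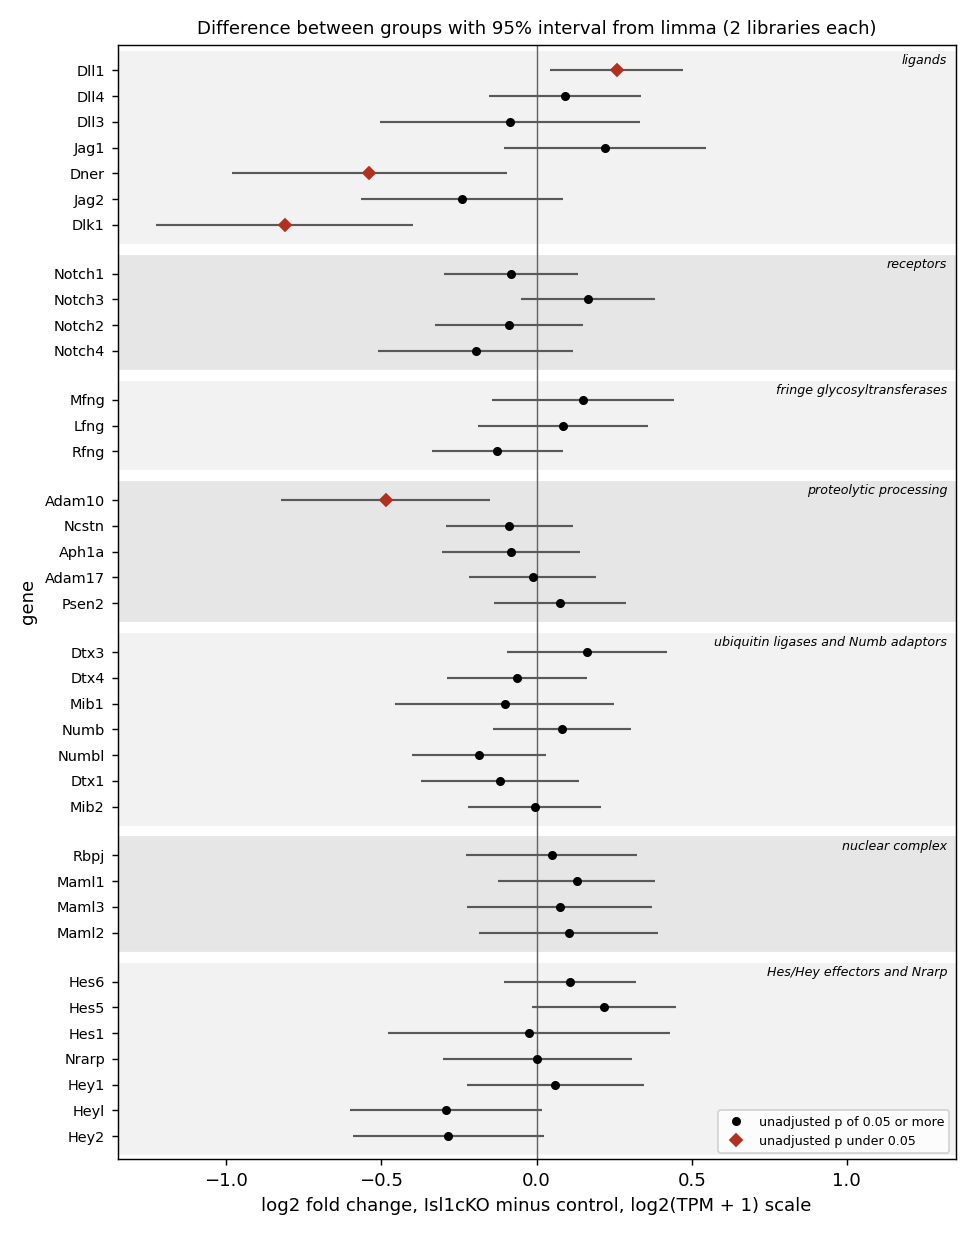
Log2 fold change (libraries labelled Isl1cKO minus control, log2(TPM + 1) scale) of each of the 37 genes with its 95% interval from limma, grouped by role, with red diamonds for an unadjusted p-value under 0.05. Only Dlk1, Dner, Adam10 and Dll1 have intervals that do not include 0, and that of Dlk1 alone extends below -1.

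Among the effectors, the abundant Hes genes of neurogenic retina stood level or slightly higher, and the scarce Hey2 and Heyl slightly lower. Hes5, a Notch-induced repressor of progenitors, stood at 255 and 237 TPM in the controls, against 279 and 294 TPM in those labelled Isl1cKO. Its groups did not overlap, with a log2 fold change of 0.22 (SE 0.09, 95% interval -0.01 to 0.45) and an adjusted p-value of 0.437 in limma. Hes6, which unlike Hes1 and Hes5 promotes neuronal differentiation, was the most abundant member, at 386 and 374 TPM in the controls, against 418 and 401 TPM in the others. Its groups also lay apart, by a log2 fold change of 0.11 (95% interval -0.10 to 0.32).

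Hes1, the other Notch-induced Hes repressor of progenitors, did not follow Hes5. It stood at 200 and 184 TPM in the controls, against 162 and 220 TPM in those labelled Isl1cKO, which were the lowest and the highest of the 4. The log2 fold change of -0.02 (95% interval -0.48 to 0.43) stood beside a replicate difference that, on the log2(TPM + 1) scale, was wider than for any other member, and leaving out Isl1cKO replicate 2 or replicate 1 gave -0.24 or 0.20. The ratio of Hes5 to Hes1 TPM was 1.27 and 1.29 in the controls and 1.72 and 1.34 in the others. Nrarp, a Notch target that feeds back to limit the receptor's intracellular domain, had the same high and low libraries as Hes1, at 94.0 and 87.0 TPM in the controls, against 83.6 and 98.2 TPM in those labelled Isl1cKO. Its log2 fold change of 0.003 was -0.11 without Isl1cKO replicate 2. Hey1 stood at 56.4 and 58.9 TPM in the controls, against 65.0 and 55.7 TPM in the others, so that here Isl1cKO replicate 1 was the high one.

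Hey2 and Heyl, repressors best known from blood vessels and heart, were at the bottom of the effectors in level. Hey2 stood at 2.48 and 1.90 TPM in the controls, against 1.60 and 1.61 TPM in those labelled Isl1cKO. Heyl stood at 8.59 and 6.99 TPM in the controls, against 6.24 and 6.07 TPM in the others. Their log2 fold changes were -0.28 (95% interval -0.59 to 0.02) and -0.29 (95% interval -0.60 to 0.02), with adjusted p-values of 0.445 and 0.439 in limma. Both were highest in control replicate 1, without which the changes were -0.15 and -0.16. In that library the sum of the 8 mural cell markers was also highest, though not each marker. The sums were 9.70 and 6.94 TPM in the controls, against 6.94 and 6.18 TPM in the others. Kcnj8 was listed at 0 in both libraries labelled Isl1cKO, and Rgs5 and Acta2 in Isl1cKO replicate 2. Kcnj8 and Acta2 were under 1 TPM in every library. The 2 tested mural markers moved in opposite directions. Tagln stood at 3.03 and 2.80 TPM in the controls, against 2.60 and 1.82 TPM in the others. Pdgfrb, with overlapping groups, stood at 3.27 and 2.83 TPM against 3.06 and 3.80 TPM. The part of vascular RNA in the Hey2 and Heyl differences was not tested. Hes5 and Hey2, whose windows both carry the longer RBPJ motif on each strand as printed above, lay on the higher and the lower side. Both 95% intervals included 0. Lfng and Dll3, the other genes printed there, each had overlapping groups. A link between motif and change was not tested.

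**Figure D4:**
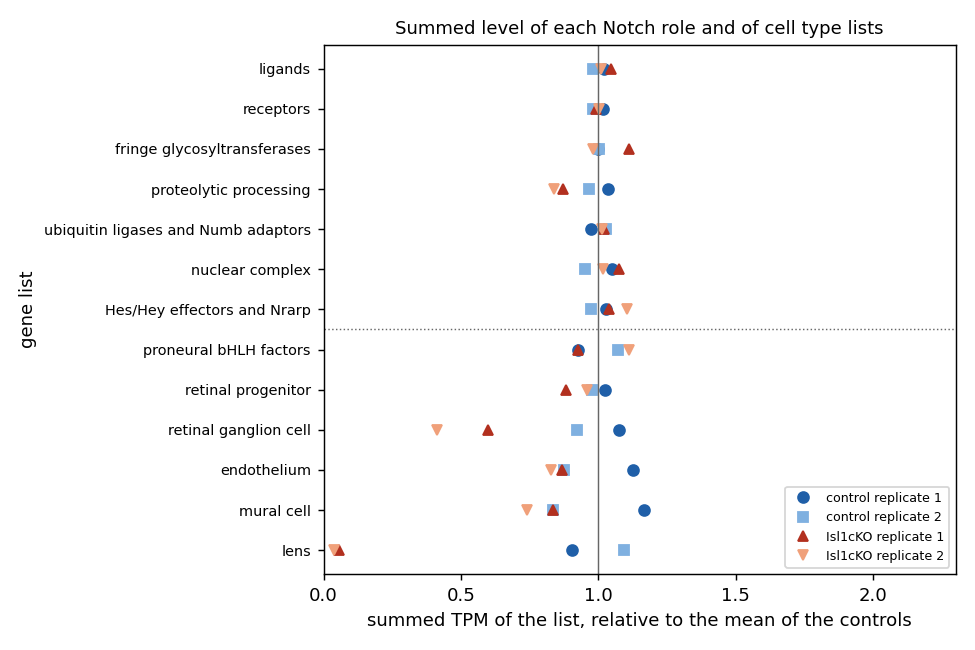
Summed TPM of each Notch role (above the dotted line) and of lists of proneural factors and cell type markers (below it) in each library, relative to the mean of the 2 controls. The Notch roles lie between 0.837 and 1.11, with proteolytic processing lowest through Adam10, while the ganglion cell markers lie at 0.598 and 0.412 and the lens markers at 0.057 and 0.037 in the libraries labelled Isl1cKO.

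Beyond the 37, a list of 44 other Notch pathway genes (glycosyltransferases, further secretase subunits, ligases, corepressors, coactivators and Hes family members) had 40 tested. None passed the threshold in limma, 2 had an unadjusted p-value under 0.05 (5.0%, against 12.1% of all tested genes), both lower, and the median log2 fold change was -0.039 with 16 higher and 24 lower (60.0%, against 63.8%). Tle1, a Groucho corepressor that Hes proteins recruit, stood at 47.4 and 53.7 TPM in the controls, against 35.9 and 31.6 TPM in those labelled Isl1cKO, that is, -0.57 (SE 0.11) on the log2 scale, with an adjusted p of 0.201. Neurl1b, a Neuralized ligase that acts on ligands, stood at 2.81 and 2.64 TPM against 1.88 and 1.73 TPM, with a log2 fold change of -0.41 (SE 0.08) and an adjusted p-value of 0.207. In both genes the groups lay well apart.

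A list of proneural factors and related neuronal genes, Insm1 and Myt1 among them, was also without a call. Of 12 listed, 10 were tested, none had an unadjusted p-value under 0.05, and the median log2 fold change was -0.08. The smallest unadjusted p-value was that of Neurod4, 0.136. It stood at 45.3 and 37.2 TPM in the controls, against 37.5 and 22.8 TPM in the others. Atoh7, which ganglion cells require, stood at 1025 and 1352 TPM in the controls, against 1058 and 1458 TPM in those labelled Isl1cKO, with replicates further apart than groups.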

How the data were processed

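Each of the 4 libraries has its own deposited table of genes, in the layout of StringTie's gene abundances, and replicates were not pooled. Per the submitters' processing notes, tools that include HISAT2 and StringTie and the build mm10 were used, with versions and the annotation not given in the sources used here. Per the labels' protocols, the libraries kept strand and were prepared from poly(A)-selected RNA. The deposited TPM, scaled by the authors to length and to a sum of 1000000 per library, was the main measure. The deposited FPKM served as an alternative, and the deposited coverage (signal) only to derive the aligned sequence. Depth in reads is unknown, so no counting interval was given.

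TPM was summed over rows of one gene ID. The 13984 genes with at least 1 TPM in at least 2 libraries were fitted as log2(TPM + 1) with limma 3.58.1 in R 4.3.3, genotype being the only term, and p-values were adjusted by Benjamini-Hochberg over all of them (threshold 0.05). Fold changes on this scale understate changes of low genes. Unadjusted p-values come from the same fit. An exact permutation test of 2 against 2 libraries cannot go below 0.333 and was not used. The fit was tested on simulated data. The members and gene lists were chosen with earlier results of these data known. Members with an unadjusted p-value under 0.05 or a log2 fold change of at least 0.5 in size, and the most abundant ones of each role, were named by rule, as were, in the other lists, genes past the threshold or else those with the smallest p-values. Values of further genes were added after being seen. Positions are those of the authors' tables, and promoter windows are from RefSeq (GRCm38.p6).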

Additional observations from a re-analysis of the deposited data

How the results depend on the processing

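No Notch pathway gene passed the threshold under any of 10 refitted alternatives or 4 fits that left out 1 library (smallest adjusted p-value 0.0619), where a lone library is taken to vary like the other group. The 44 other pathway genes and the proneural factors also had 0 calls throughout. Of the members, 33 kept their sign under every refitted alternative and 26 also in every fit with a library left out. The cause of each change below was not tested unless the setting itself shows it. The count of 69 genes over the whole table was 15 with no filter on low values, where more genes were tested, 43 without sex-linked, haemoglobin and crystallin genes, 44 at a pseudocount of 0.1, 109 with FPKM, 110 with a mean-variance trend, and 10 to 37 with a library left out (10 without control replicate 1, 14 without control replicate 2, 18 without Isl1cKO replicate 2, 37 without Isl1cKO replicate 1).

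Under median-ratio scaling, upper-quartile scaling and FPKM, in that order, the members' median of -0.012 was 0.043, 0.035 and 0.036. That of proteolytic processing (-0.08) was -0.026, -0.034 and -0.031, that of the ligases and adaptors (-0.06) was -0.0072, -0.016 and -0.013, and that of the 44 other genes (-0.039) was 0.014, 0.0060 and 0.0075. In the same order Adam17 (-0.01) became 0.043, 0.035 and 0.036, Mib2 (-0.01) 0.049, 0.041 and 0.041, and Hes1 (-0.02) 0.033, 0.025 and 0.027. Nrarp (0.003) was -0.00085 without sex-linked, haemoglobin and crystallin genes.

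With each library left out in turn, medians ranged from -0.052 to 0.035 for the members, -0.29 to 0.053 for ligands, -0.14 to -0.03 for receptors, -0.014 to 0.19 for Fringe enzymes, -0.076 to -0.044 for proteolytic processing, -0.056 to -0.0026 for ligases and adaptors, -0.022 to 0.16 for the nuclear complex, -0.11 to 0.080 for effectors and -0.075 to -0.028 for the 44 other genes. Members that changed sign ranged from -0.29 to 0.12 (Dll3), -0.014 to 0.19 (Lfng), -0.031 to 0.0073 (Adam17), -0.26 to 0.054 (Mib1), -0.046 to 0.035 (Mib2), -0.036 to 0.13 (Rbpj), -0.0077 to 0.21 (Maml2), -0.042 to 0.19 (Maml3), -0.24 to 0.20 (Hes1), -0.048 to 0.17 (Hey1) and -0.11 to 0.12 (Nrarp).

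The replicate numbers share no stated litter or day, and the deviations of replicate 1 from the group means correlated at 0.13 across genes. With the replicate block 265 genes passed, none of them a member. The smallest adjusted p-values among the members were then those of Dlk1 (0.0830), Dner (0.0852) and Adam10 (0.110).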
